A study of Homo sapiens with 18 samples.

Results

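The mRNA levels of 9 genes of the NRF2 antioxidant pathway were followed in VCaP, a line from metastatic prostate cancer in which TMPRSS2 is fused to ERG. The genes were HMOX1, NQO1, GCLM, GCLC, SRXN1, TXNRD1, TXN, OSGIN1 and NFE2L2. They were taken by name from a table of 22034 genes measured by RNA-seq, and each of the 9 had a row. RNA was measured in 18 samples that fall into 6 groups of 3 replicates. In the first experiment, VCaP-shERG cells, which carry a short hairpin RNA against ERG that doxycycline switches on, received vehicle (labelled shERG.DMSO, here shERG-vehicle) or doxycycline at 1 µg/mL (shERG-Dox). In the second experiment, VCaP cells not labelled with the hairpin received DMSO or 50 µM PBITE-1, a small molecule that the study developed to bind and inhibit ERG, and the PBITE-1 cells were collected at 4, 8 and 12 h. All the cells carry the same fusion. The duration of doxycycline and the collection time of the DMSO samples are not given in the labels, the hairpin cells with and without doxycycline are a single engineered line, and no doxycycline samples without the ERG hairpin were analysed here. The question the design poses for these genes is whether lowering ERG and treating with PBITE-1 moved them alike.

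NRF2, the protein encoded by NFE2L2, is the transcription factor that responds to oxidants and electrophiles. In unstressed cells KEAP1 binds it and directs its ubiquitination and rapid destruction, so much of its control is at the protein level and is not seen in mRNA. When cysteines of KEAP1 are modified, NRF2 accumulates, pairs with a small MAF protein, and binds antioxidant response elements near genes for glutathione synthesis, thioredoxin reduction, quinone reduction and haem breakdown. BACH1 competes for many of the same elements, and HMOX1 is its best known target.

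The members lie apart in the genome. On GRCh38, GENCODE 29 places NFE2L2 at chr2:177227595-177392697, GCLC at chr6:53497341-53616970, GCLM at chr1:93885205-93909456, TXN at chr9:110243811-110256640, TXNRD1 at chr12:104215779-104350305, SRXN1 at chr20:646615-653370, HMOX1 at chr22:35380361-35394214, NQO1 at chr16:69706996-69726951 and OSGIN1 at chr16:83948282-83966332. NQO1 and OSGIN1 share chromosome 16, and the others are each on a chromosome of their own.

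The promoters of the members are shown first because the element that gives the pathway its name can be looked for in their letters. RefSeq windows on GRCh38.p14 were available for 8 members in 10 windows, and the 250 bases before each start were searched on both strands. The core element, searched as TGANNNNGC, was present in 6 of the 10 windows (NQO1, GCLM, both TXNRD1 windows, OSGIN1 and 1 of the 2 windows of NFE2L2), against 35.2% of 35116 windows genome-wide. A stricter form, TGACNNNGC, was present in 3 of the 10 windows (GCLM and both TXNRD1 windows), against 10.9% of all windows. The AP-1 site TGANTCA was present only in the OSGIN1 window, where it overlaps a core match, against 6.57% of all windows. A match describes letters and does not show binding, and elements outside these windows were not searched. The 4 windows below contrast 3 genes that rose with PBITE-1 and have a core match with TXN, which fell and has none. The match did not follow the response across the members, since GCLC and SRXN1 rose at 12 h without a match in their windows, and NQO1 has a match and did not pass. Each is written 5′ to 3′ on the strand of the gene with core matches, on either strand, in capitals. GCLM is chr1:93909431-93909680 on the minus strand, the second TXNRD1 window is chr12:104286782-104287031 on the plus strand, OSGIN1 is chr16:83952990-83953239 on the plus strand, and TXN is chr9:110256508-110256757 on the minus strand.
GCLM: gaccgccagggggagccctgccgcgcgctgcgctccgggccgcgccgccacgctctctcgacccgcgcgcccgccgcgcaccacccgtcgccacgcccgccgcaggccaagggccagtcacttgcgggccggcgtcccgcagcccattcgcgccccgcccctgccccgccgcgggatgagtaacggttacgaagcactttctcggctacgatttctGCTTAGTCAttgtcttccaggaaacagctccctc
TXNRD1: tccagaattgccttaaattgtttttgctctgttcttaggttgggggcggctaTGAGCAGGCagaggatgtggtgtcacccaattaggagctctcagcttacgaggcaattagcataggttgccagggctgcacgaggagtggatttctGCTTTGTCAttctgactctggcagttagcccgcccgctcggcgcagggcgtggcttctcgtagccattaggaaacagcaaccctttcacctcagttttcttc
OSGIN1: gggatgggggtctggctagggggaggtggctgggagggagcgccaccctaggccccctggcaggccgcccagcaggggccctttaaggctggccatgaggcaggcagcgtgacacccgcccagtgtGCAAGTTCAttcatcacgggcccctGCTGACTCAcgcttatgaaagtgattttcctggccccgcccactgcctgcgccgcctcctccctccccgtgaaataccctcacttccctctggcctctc
TXN: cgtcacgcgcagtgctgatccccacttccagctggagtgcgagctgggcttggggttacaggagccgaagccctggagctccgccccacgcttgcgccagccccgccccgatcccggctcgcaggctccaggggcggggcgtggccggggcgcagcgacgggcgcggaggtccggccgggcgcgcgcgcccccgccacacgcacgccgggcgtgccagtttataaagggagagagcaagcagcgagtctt

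Totals ran from 11308600 to 17483423 counts per sample, and those of shERG-Dox (11750649 to 12613903) were all below those of shERG-vehicle (13223421 to 16202892). Levels are in CPM, the counts of a gene relative to the total of the sample after TMM scaling of all 18 samples, and values in a sentence follow replicates 1, 2 and 3. A gene passed in a comparison at a limma-voom adjusted p under 0.05 over the 14164 genes tested, and was called when its absolute log2 fold change was also above 1. ERG was at 419 ± 12.2 CPM in shERG-vehicle and 154 ± 3.91 in shERG-Dox, and in the PBITE-1 experiment it went from 303 ± 8.78 in DMSO to 186 ± 3.14 at 4 h, 96.5 ± 3.23 at 8 h and finally 99.2 ± 7.597 at 12 h (SD of 3 replicates). Markers of prostate epithelium were present in every sample and moved with the treatments. From DMSO to 12 h of PBITE-1, KLK2 went from 2761 to 613 CPM, KLK3 from 88.4 to 8.06, HOXB13 from 245 to 97.6 and EPCAM from 336 to 212. Over the same step KRT8 rose from 118 to 219 and FOXA1 from 526 to 662. From vehicle to doxycycline KLK2 went from 3275 to 2175, KLK3 from 126 to 106, HOXB13 from 266 to 449 and EPCAM from 314 to 244. There KRT8 went from 128 to 159 and FOXA1 from 451 to 558. Of the 12 markers listed, 9 passed lower and 2 higher at 12 h (39.4% and 39.4% of all genes). After doxycycline 6 passed lower and 5 higher (35.3% and 35.1%). The 8 fibroblast markers summed to at most 9.90 CPM, and 4 of them had at most 3 counts in every sample. Their sum was 1.39 to 2.18 CPM in shERG-vehicle, 7.44 to 8.95 in shERG-Dox, 2.43 to 3.45 in DMSO and 5.72 to 9.90 at 12 h, mostly COL1A1 and LUM. The 6 endothelial markers summed to 0.832 to 1.67 CPM in DMSO and 2.07 to 2.64 at 12 h, and to 0.281 to 0.759 in vehicle and 1.24 to 1.36 with doxycycline, and CDH5 and CLDN5 had at most 1 count in a sample. PECAM1 went from 0.0643 CPM in DMSO to 1.58 at 12 h, and KDR from 0.0213 in DMSO to 1.36 at 8 h and 0.374 at 12 h. VWF went the other way, from 1.15 CPM in DMSO to 0.119 at 12 h. Of the blood cell markers, CD14 had at most 28 counts in a sample, LYZ 25, CD68 20, ITGAM 6, PTPRC 4 and CD3E 1, with CD14 highest in DMSO (1.44 CPM) and LYZ highest at 4 h (1.60). The part of these markers in the results was not tested. In bulk RNA, fewer cells of a kind and less RNA per cell cannot be told apart.

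At 12 h of PBITE-1, GCLM, GCLC, SRXN1, TXNRD1, OSGIN1 and NFE2L2 were higher than in DMSO, TXN was lower, and NQO1 did not pass. HMOX1, the ninth gene, was higher in each 12 h sample than in each DMSO sample. It entered the tests only through the samples in which it was high, since its controls fell below the filter on low counts, so it is described by its counts further on, and the numbers given next cover the other 8 genes unless it is named. The 6 genes that rose were all called, with log2 fold changes of 1.28 to 1.76, as was TXN at -1.29. Among all genes at 12 h, 39.4% passed higher and 39.4% lower, and 17.1% were called higher and 15.4% lower. At 8 h, 5 of the 8 passed higher and 1 lower (35.9% and 37.0% of all genes), and 2 were called, GCLC and NFE2L2, both higher (14.9% of all genes higher and 8.86% lower). At 4 h, 3 passed higher and 1 lower (26.4% and 24.7% of all genes), and HMOX1 alone had a change above 1 (7.28% of all genes called higher and 2.99% lower).

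After doxycycline, by contrast, 5 of the 8 passed lower (GCLM, SRXN1, TXNRD1, TXN and NFE2L2) and the other 3 did not pass, where 35.1% of all genes passed higher and 35.3% lower. TXN was called lower, and HMOX1 alone had a change above 1 (12.0% of all genes called higher and 7.19% lower). With scaling by upper quartile or by library size only, GCLC passed higher, 3 of the 8 passed lower, and TXN was under the fold threshold. The median log2 fold change of the 8 genes was -0.41 after doxycycline, 0.15 at 4 h, 0.42 at 8 h and 1.29 at 12 h, beside 0.02, -0.01, -0.02 and -0.01 over all genes. The 3 times share the DMSO samples and are not independent of each other.

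**Figure D1:**
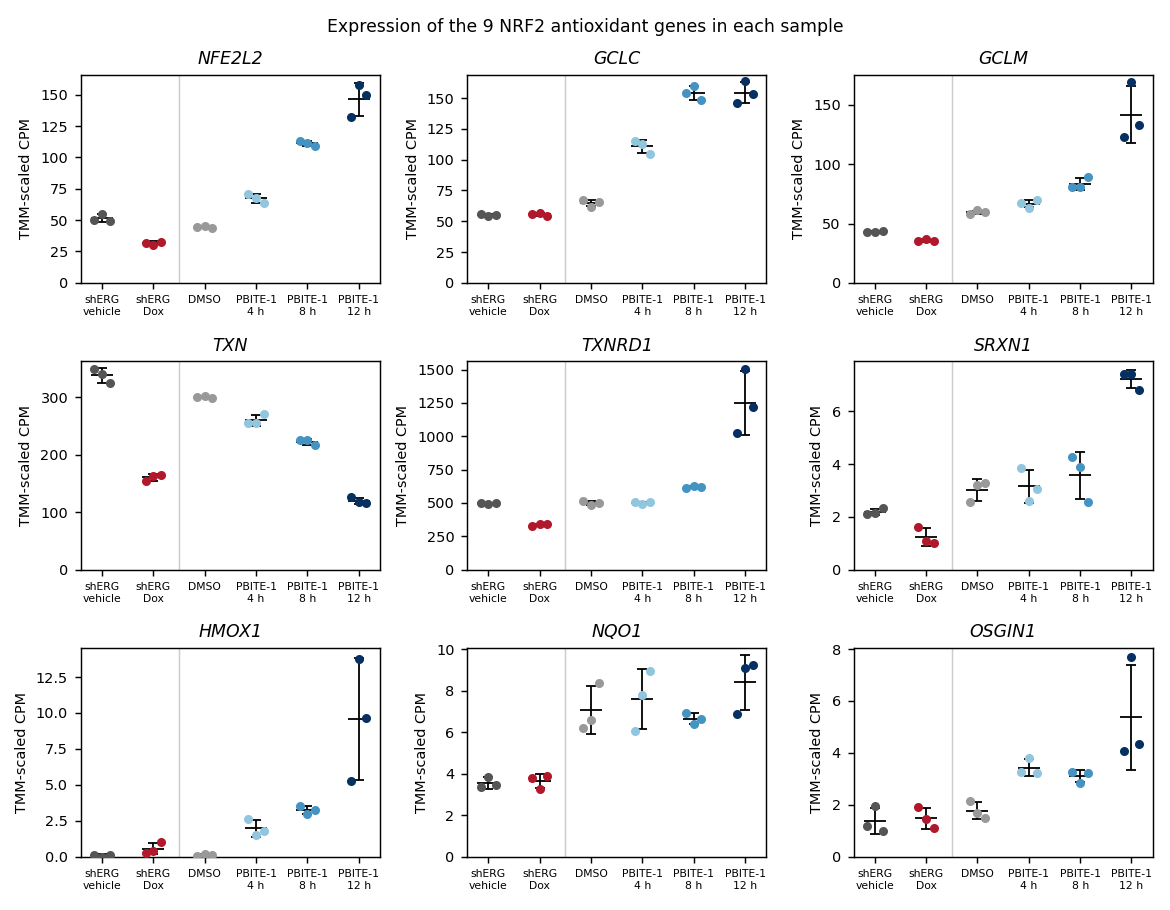
TMM-scaled CPM (vertical axis, linear from 0) of each of the 9 genes in the 6 groups (horizontal axis), with 1 point per replicate, a dash for the mean and bars for the SD (n = 3); the grey line separates the 2 experiments. NFE2L2 stepped up from 44.4 CPM in DMSO to 146 at 12 h, while TXN stepped down from 300.1 to 120 and NQO1 overlapped its control at each time.

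NFE2L2, the gene for NRF2 itself, rose at each time of PBITE-1 and was lower after doxycycline. Its level was 44.3, 45.1 and 43.7 CPM in DMSO, 70.8, 67.3 and 63.8 at 4 h, 113, 111 and 109 at 8 h, and 132, 158 and 150 at 12 h. No replicate of 1 time overlapped those of the next. The log2 fold change over DMSO was 0.62 ± 0.07 (SE) at 4 h, 1.35 ± 0.06 at 8 h and 1.76 ± 0.06 at 12 h (limma adjusted p = 4.12e-10, 1.42e-21 and 5.57e-26). In the hairpin cells the level was 50.3, 54.9 and 49.2 CPM with vehicle and 32.0, 30.4 and 32.9 with doxycycline, 2 groups that did not overlap, for a log2 fold change of -0.70 ± 0.07 (limma adjusted p = 5.98e-10). NFE2L2 overlaps AGPS on the other strand, and whether the counting used strand is not given in the sources used here.

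GCLC and GCLM encode the catalytic and the modifier subunit of glutamate-cysteine ligase, the rate-limiting enzyme of glutathione synthesis, and both rose with PBITE-1, but at different times. GCLC was at 67.0, 61.9 and 65.9 CPM in DMSO, 115, 113 and 105 at 4 h, 155, 160 and 149 at 8 h, and 146, 164 and 153 at 12 h. It had thus risen at 4 h (log2 fold change 0.79 ± 0.06, limma adjusted p = 4.16e-15) and reached 1.28 ± 0.05 at 8 h and 1.29 ± 0.05 at 12 h, and the 8 h and 12 h replicates overlapped. GCLM was at 58.4, 61.03 and 59.3 CPM in DMSO, 66.9, 63.5 and 69.6 at 4 h, 80.4, 80.8 and 88.9 at 8 h, and 123, 169 and 133 at 12 h. Its change was 0.18 ± 0.08 at 4 h, which did not pass in limma (adjusted p = 0.0585) but did in edgeR (0.0338), 0.50 ± 0.08 at 8 h (2.83e-07) and 1.28 ± 0.07 at 12 h (4.48e-19). From 8 to 12 h, GCLM rose by a log2 fold change of 0.78 ± 0.07 (limma adjusted p = 1.57e-12), whereas GCLC differed by 0.01 ± 0.05 (0.861).

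The ratio of GCLC to GCLM, in counts per kilobase of the exons of each gene, followed from these courses. It was 0.684 ± 0.0432 (SD, n = 3) in DMSO, rose to 1.05 ± 0.0885 after 4 h and 1.17 ± 0.103 after 8 h, and returned to 0.692 ± 0.0738 after 12 h, when the replicates overlapped those of DMSO. In the hairpin cells it was 0.805 ± 0.0229 with vehicle and 0.973 ± 0.0219 with doxycycline. In these cells GCLM was at 42.5, 42.5 and 44.0 CPM with vehicle and 35.4, 37.3 and 35.0 with doxycycline (log2 fold change -0.26 ± 0.06, limma adjusted p = 0.000625). GCLC was at 56.2, 54.4 and 55.0 CPM with vehicle and 56.2, 56.5 and 54.2 with doxycycline, groups that overlapped. With scaling by library size only, which moved the median of all genes to 0.28 in the doxycycline comparison, GCLM no longer passed (-0.0027, limma adjusted p = 0.971) and GCLC passed higher (0.27, limma adjusted p = 7.77e-05), so whether either gene of this pair passed after doxycycline depends on the scaling.

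TXN and TXNRD1, a substrate and its enzyme, moved in opposite directions with PBITE-1 and in the same direction with doxycycline. TXN encodes thioredoxin, the small protein that reduces disulfides of peroxiredoxins and other targets, and TXNRD1 encodes the selenoenzyme that returns thioredoxin to its reduced form with NADPH. TXN was at 299.8, 301 and 299 CPM in DMSO, 255, 254 and 271 at 4 h, 226, 225 and 216 at 8 h, and 126, 117 and 116 at 12 h. The replicates of no 2 times overlapped, and the log2 fold change was -0.18 ± 0.04, -0.40 ± 0.04 and -1.29 ± 0.04 (limma adjusted p = 0.000141, 1.16e-11 and 2.69e-26). TXNRD1 was at 514, 483 and 502 CPM in DMSO, 506, 492 and 504 at 4 h, 611, 630 and 619 at 8 h, and 1024, 1503 and 1217 at 12 h. At 4 h it overlapped DMSO (log2 fold change 0.02 ± 0.07, limma adjusted p = 0.796), at 8 h it was 0.34 ± 0.07 higher (2.54e-05) and at 12 h 1.35 ± 0.06 higher (1.61e-21).

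With doxycycline both genes fell. TXN was at 349, 341 and 324 CPM with vehicle and 154, 162 and 165 with doxycycline, and TXNRD1 at 497, 495 and 498 with vehicle and 330.3, 340.2 and 342 with doxycycline. Neither pair of groups overlapped, and the log2 fold change was -1.08 ± 0.04 for TXN (limma adjusted p = 3.44e-19) and -0.56 ± 0.03 for TXNRD1 (6.39e-16). TXN was the only member called lower after doxycycline, and under scaling by library size or upper quartile its fall passed but was no longer above 1. The ratio of TXNRD1 to TXN per kilobase, examined with the GCLC to GCLM ratio after the values had been seen, was 0.284 ± 0.00972 in DMSO, 0.328 ± 0.0107 at 4 h, 0.475 ± 0.0138 at 8 h and 1.79 ± 0.401 at 12 h, against 0.251 ± 0.00997 with vehicle and 0.358 ± 0.00531 with doxycycline. Counts per kilobase of TXN thus exceeded those of TXNRD1 in each sample except the 3 at 12 h, where the ratio was 1.38, 2.19 and 1.79. Processed copies of TXN elsewhere in the genome could share reads with it, and the rows of 2 of them, TXNP4 and TXNP6, held at most 3 counts in a sample. TXNRD1 overlaps EID3 on the same strand.

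**Figure D2:**
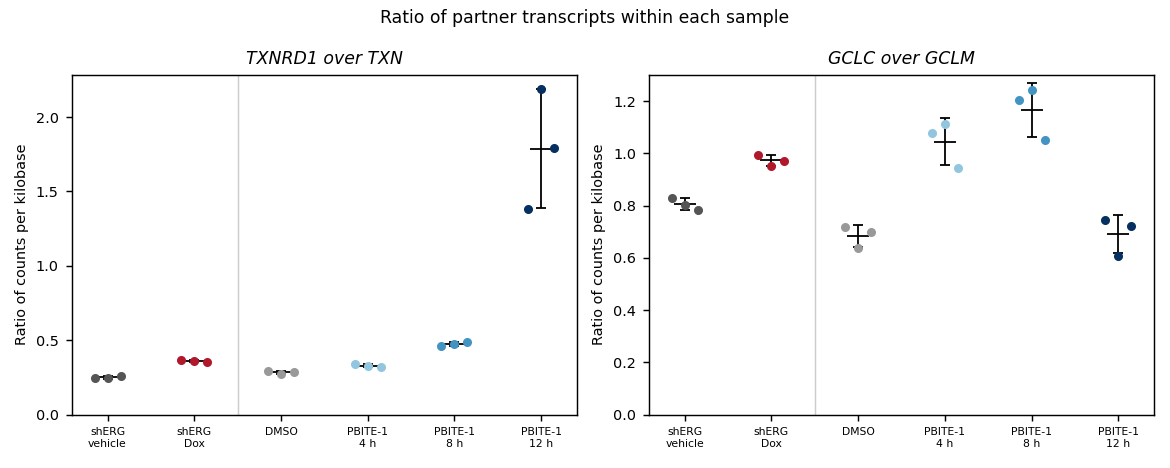
Ratio of counts per kilobase of exon (vertical axis, linear from 0) of TXNRD1 over TXN and of GCLC over GCLM in each sample of the 6 groups (horizontal axis), with 1 point per replicate, a dash for the mean and bars for the SD (n = 3). TXNRD1 over TXN is above 1 in the 3 samples at 12 h alone, while GCLC over GCLM is highest at 8 h (1.17) and back at 0.692 at 12 h.

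SRXN1 encodes sulfiredoxin, which repairs overoxidised peroxiredoxins, and was a low-level transcript here. It ranged from 2.55 to 3.29 CPM in DMSO, 2.59 to 3.84 after 4 h and 2.58 to 4.27 after 8 h, groups that overlapped, and from 6.82 to 7.42 at 12 h, above each of them. The log2 fold change at 12 h was 1.29 ± 0.19 (limma adjusted p = 1.69e-07). With doxycycline it ranged from 1.02 to 1.63 CPM, below the 2.10 to 2.32 of vehicle, for a change of -0.82 ± 0.30 (limma adjusted p = 0.0193). These are 14 to 34 counts per sample, and SRXN1 no longer passed without shERG-Dox replicate 2 (-0.73, limma adjusted p = 0.0722), without shERG-Dox replicate 3 (-0.69, 0.0801), in DESeq2 (-0.80, 0.0524), or with scaling by upper quartile (-0.66, 0.056) or library size only (-0.56, 0.102).

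HMOX1 encodes haem oxygenase 1, which breaks down haem to biliverdin, iron and carbon monoxide, and it had the largest fold change of the members in each treatment comparison from the lowest starting level. Its raw counts were 1, 3 and 2 in DMSO, 31, 20 and 23 at 4 h, 58, 42 and 35 at 8 h, and 70, 206 and 140 at 12 h. On the CPM scale this was 0.0690, 0.192 and 0.120 in DMSO, 2.64, 1.52 and 1.76 at 4 h, 3.49, 2.98 and 3.22 at 8 h, and 5.29, 13.8 and 9.64 at 12 h. The DMSO samples were all at or below 3 counts and none overlapped a PBITE-1 sample. Summed over replicates, the rate was 15.2 times that in DMSO at 4 h (95% exact interval 6.68 to 42.8), 25.3 times at 8 h (11.3 to 70.3) and 76.0 times at 12 h (34.6 to 208), where the intervals cover counting error only. The ratio moved to 101 at 12 h without DMSO replicate 2 and to 59.0 without the 12 h replicate 2. The fitted log2 fold changes of 3.69, 4.45 and 5.94 depend on the prior count that the fit adds to controls so near to 0, and no p is given for them because the gene passed the filter only through the samples in which it was high.

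In the hairpin cells HMOX1 had 1, 0 and 2 counts with vehicle and 4, 5 and 14 with doxycycline, which did not overlap. The summed rate was 7.80 times higher (95% exact interval 2.36 to 40.6) and the fitted log2 fold change 2.57. Single libraries moved this ratio by over 1.5 times, to 4.52 (1.13 to 26.0) without shERG-Dox replicate 3, which held 14 of the 23 counts, to 4.92 (1.49 to 25.6) without shERG-vehicle replicate 2 and to 15.6 (2.54 to 644) without shERG-vehicle replicate 3. HMOX1 was the only member with each doxycycline sample above each vehicle sample, and the share of all genes with this pattern was not counted. Its level of 0.552 ± 0.408 CPM (SD, n = 3) with doxycycline remained under the lowest PBITE-1 sample (1.52 CPM).

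OSGIN1, which encodes an oxidative stress-induced growth inhibitor, and NQO1, which encodes the quinone reductase often used as a readout of NRF2, differed from each other. OSGIN1 ranged from 1.49 to 2.14 CPM in DMSO, then 3.22 to 3.81, 2.84 to 3.25 and 4.08 to 7.69 after 4, 8 and 12 h, each time above DMSO. Its log2 fold change was 0.99 ± 0.29, 0.85 ± 0.29 and 1.61 ± 0.26 (limma adjusted p = 0.00387, 0.00796 and 8.37e-07). With doxycycline it ranged from 1.09 to 1.90 CPM and overlapped vehicle, at 0.984 to 1.96 (log2 fold change 0.12 ± 0.35, limma adjusted p = 0.766).

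NQO1 passed in none of the 4 treatment comparisons. It was at 6.21, 6.60 and 8.37 CPM in DMSO, 6.06, 7.77 and 8.96 at 4 h, 6.92, 6.38 and 6.63 at 8 h, and 6.87, 9.09 and 9.23 at 12 h, so each time overlapped DMSO. The change at 12 h was 0.29 ± 0.15 (limma adjusted p = 0.0835), and it passed without DMSO replicate 3 (0.43, adjusted p = 0.026), without the 12 h replicate 1 (0.41, adjusted p = 0.0179) and with sample quality weights (0.36, adjusted p = 0.0328). With vehicle it was at 3.34, 3.86 and 3.44 CPM and with doxycycline at 3.80, 3.27 and 3.86 (log2 fold change 0.03 ± 0.20, limma adjusted p = 0.899).

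**Figure D3:**
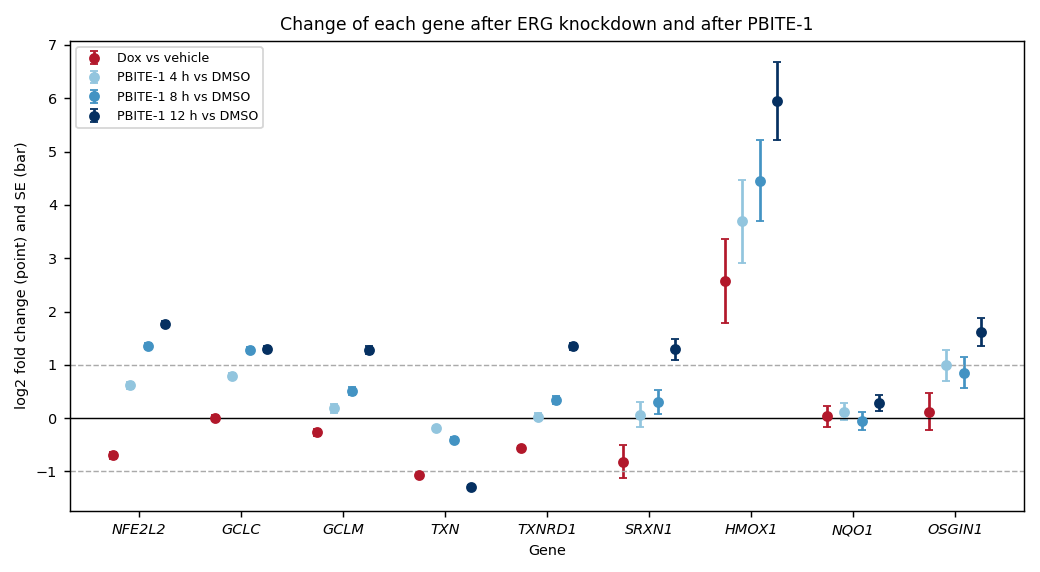
Log2 fold change (vertical axis) of each of the 9 genes (horizontal axis) from the limma-voom fits, with bars for the SE, for Dox against vehicle (red) and PBITE-1 at 4, 8 and 12 h against DMSO (light to dark blue); dashed lines mark a change of 1. At 12 h, 7 genes lie above 1 and TXN below -1, while after Dox HMOX1 alone lies above 1; the HMOX1 values depend on the prior count.

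The members changed between times of PBITE-1 too. Of the 8 other than HMOX1, 4 passed higher from 4 to 8 h (GCLM, GCLC, TXNRD1 and NFE2L2) and TXN lower, against 26.7% and 26.3% of all genes. Without a filter on low counts TXNRD1 did not pass there (0.31, limma adjusted p = 0.0628). From 8 to 12 h, 5 of the 8 passed higher (GCLM, SRXN1, TXNRD1, OSGIN1 and NFE2L2) and TXN lower, against 27.8% and 32.5% of all genes. The fitted log2 fold change of HMOX1 was 0.76 from 4 to 8 h and 1.49 from 8 to 12 h, and no p is given for it. Replicate 2 of the 12 h group had the highest level of 7 of the 9 members, all but NQO1 and TXN. Without it, the 6 members other than HMOX1 that were called higher at 12 h against DMSO were still called, as was TXN lower. From 8 to 12 h without it, OSGIN1 no longer passed (0.45, limma adjusted p = 0.094), and TXNRD1 passed with a change under 1 (0.87 in place of 1.01).

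The responses to 12 h of PBITE-1 and to doxycycline were compared directly in a fit of all 18 samples. Of the 8 members other than HMOX1, the response to PBITE-1 was higher for 6 and lower for TXN, where 33.3% of all genes passed higher and 35.1% lower, and NQO1 did not pass. NFE2L2 had a difference in log2 fold change of 2.42 ± 0.10 (limma adjusted p = 5.31e-26), SRXN1 of 2.06 ± 0.37 (3.85e-06), TXNRD1 of 1.87 ± 0.09 (1.58e-22), GCLM of 1.503 ± 0.11 (8.42e-16), OSGIN1 of 1.45 ± 0.46 (0.00493) and GCLC of 1.24 ± 0.08 (2.15e-18). For NFE2L2, TXNRD1, GCLM and SRXN1 the 2 responses had opposite signs, and the share of all genes with opposite signs was not counted. The fall after doxycycline did not pass for GCLM and SRXN1 with upper-quartile or library-size scaling, nor for SRXN1 in DESeq2. TXN fell in both responses, by 0.26 more on the log2 scale with PBITE-1 (difference -0.26 ± 0.06, limma adjusted p = 0.000144). The HMOX1 responses, both against controls at 0 to 3 counts, are given by their ratios above (76.0 with PBITE-1 and 7.80 with doxycycline), and no p is given for their difference. The cell line, the agent and the experiment differ together in this comparison and cannot be told apart.

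The control groups themselves differed for 5 members. NFE2L2 and TXN were higher in shERG-vehicle than in DMSO (log2 fold change 0.22 and 0.17), and NQO1, GCLM and GCLC were lower (-0.98, -0.47 and -0.23), where 23.3% of all genes passed higher and 23.3% lower. NQO1 showed the widest gap, with 3.34 to 3.86 CPM against 6.21 to 8.37 (limma adjusted p = 3.53e-05).

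Levels per kilobase of exon put the members in order. In DMSO, TXN was at 263 ± 1.03 CPM per kilobase, TXNRD1 at 74.5 ± 2.33, GCLM at 10.99 ± 0.245, GCLC at 7.51 ± 0.312, NFE2L2 at 7.42 ± 0.122, NQO1 at 2.17 ± 0.354, SRXN1 at 1.12 ± 0.149, OSGIN1 at 0.511 ± 0.0967 and HMOX1 at 0.0528 ± 0.0257 (SD, n = 3). GCLC and NFE2L2 differed by less than their spread. At 12 h the order was TXNRD1 at 186 ± 35.9, TXN at 105 ± 4.91, GCLM at 26.1 ± 4.44, NFE2L2 at 24.5 ± 2.21, GCLC at 17.9 ± 1.01, HMOX1 at 3.98 ± 1.76, SRXN1 at 2.67 ± 0.127, NQO1 at 2.58 ± 0.406 and OSGIN1 at 1.55 ± 0.582. There GCLM and NFE2L2, as well as HMOX1, SRXN1 and NQO1, differed by less than their spread, so TXNRD1 had passed TXN and HMOX1 had moved up from the last place.

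Beyond the 9 genes, 68 other genes of the pathway were listed in 6 groups, and 61 of them were tested. After doxycycline 22 passed higher and 25 lower, beside 35.1% and 35.3% of all genes. At 4 h these were 19 and 9 (26.4% and 24.7%), at 8 h 29 and 17 (35.9% and 37.0%), and at 12 h 30 and 26 (39.4% and 39.4%), and the counts of each group of these genes are to be read against the same shares. Their median log2 fold change was -0.09, 0.06, 0.10 and 0.07, beside the medians over all genes given above, and genes passed in both directions in each comparison.

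Among the regulators, 6 of 10 tested genes were higher and 3 lower at 12 h, and 5 higher and 2 lower after doxycycline. MAFF, a small MAF partner of NRF2, was higher after doxycycline (1.31 ± 0.25, limma adjusted p = 4.13e-05) and at 4, 8 and 12 h of PBITE-1 (1.16, 1.64 and 1.66). BACH1, the repressor that competes with NRF2, was called higher at 4 h (1.09 ± 0.06) and 8 h (1.53 ± 0.06). SQSTM1, which encodes the p62 protein that sequesters KEAP1, was called higher at 8 h (1.49 ± 0.05). Both were still above DMSO at 12 h. BACH1 was then at 136 ± 11.6 CPM against 62.8 ± 4.37 in DMSO, and SQSTM1 at 187 ± 7.96 against 78.9 ± 3.96. KEAP1, chosen after its values were seen, was at 45.1 ± 4.78 CPM in DMSO, then 30.6 ± 2.35, 21.0 ± 1.44 and 28.0 ± 0.665 after 4, 8 and 12 h (SD, n = 3), and at 40.8 ± 1.24 with vehicle and 37.9 ± 1.38 with doxycycline. Its log2 fold change was -1.07 at 8 h and -0.11 after doxycycline, so the mRNA of the NRF2 inhibitor was lowest at 8 h.

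In the glutathione group, 3 of 14 tested genes were higher and 10 lower at 12 h. SLC7A11, the cystine importer that feeds glutathione synthesis, went against that majority. It rose from 34.6 ± 4.67 CPM in DMSO to 157 ± 8.28 at 4 h, 561 ± 16.6 at 8 h and 1078 ± 156 at 12 h (log2 fold change 2.20, 4.04 and 4.99, limma adjusted p = 6.66e-21, 4.16e-31 and 1.28e-34). With doxycycline it was at 20.0 ± 1.92 CPM against 37.6 ± 5.09 with vehicle, a change of -0.91. GGT1, which cleaves extracellular glutathione and overlaps SNRPD3 on the same strand, fell at 12 h (-2.07 ± 0.13), and GSTA4, a glutathione transferase for lipid aldehydes, was higher after doxycycline (1.29 ± 0.08, limma adjusted p = 6.68e-14).

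In the peroxide and thioredoxin group, 5 of 13 tested genes were higher and 7 lower at 12 h, and 2 higher and 8 lower after doxycycline. SESN2, a stress-induced sestrin, rose from 2.71 ± 0.589 CPM in DMSO to 78.8 ± 1.87 at 4 h, 145 ± 5.48 at 8 h and 142 ± 24.0 at 12 h (log2 fold change 4.90, 5.79 and 5.76). TXNIP, which binds and inhibits thioredoxin, fell at all 3 times (-1.498, -2.32 and -1.81), and CAT, the catalase gene, was higher at 12 h (1.42 ± 0.07, limma adjusted p = 5.37e-20). Among genes that supply NADPH, 5 of 6 were higher and 1 lower at 12 h, whereas 1 was higher and 4 lower after doxycycline. PGD, a pentose phosphate enzyme, was called at 8 h (1.09 ± 0.04) and was higher still at 12 h. Its level was 190 ± 7.18 CPM in DMSO, 395 ± 12.6 at 8 h and 472 ± 4.12 at 12 h. IDH1, which makes NADPH in the cytosol, was called at 12 h (1.38 ± 0.03, limma adjusted p = 7.45e-31).

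In the haem and iron group, 7 of 7 tested genes were higher after doxycycline, beside 35.1% of all genes, with a median of 0.51. At 12 h, 5 of these were higher and 2 lower. BLVRB, which encodes biliverdin reductase B, was called at 8 h (1.33 ± 0.23) and 12 h (1.66 ± 0.23). BLVRA, which encodes biliverdin reductase A and was chosen after its values were seen, moved the other way with PBITE-1. It went from 16.4 ± 1.10 CPM in DMSO to 11.5 ± 1.80 at 8 h and 11.7 ± 1.29 at 12 h. The ferritin genes FTL and FTH1, chosen after their values were seen, had the same log2 fold change at 12 h (1.36 for each). FTL went from 131 ± 8.40 CPM in DMSO to 191 at 4 h, 266 at 8 h and 327 ± 12.9 at 12 h. FTH1 went from 341 ± 8.09 to 419, 557 and 851 ± 44.6 at the same times. In the quinone and carbonyl group, 6 of 11 tested genes were higher and 3 lower at 12 h, and 3 in each direction after doxycycline, where PTGR1, which reduces reactive aldehydes and prostaglandins, fell from 257 ± 7.43 to 111 ± 3.84 CPM (-1.21 ± 0.04, limma adjusted p = 1.46e-19).

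**Figure D4:**
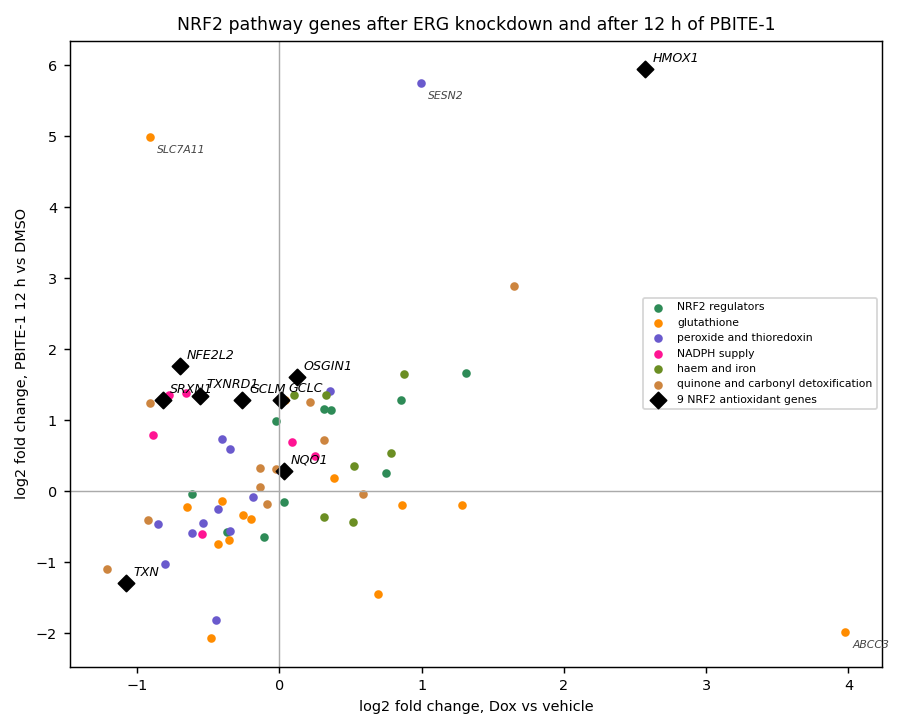
Log2 fold change after Dox (horizontal axis) and after 12 h of PBITE-1 (vertical axis) of the 9 genes (black diamonds) and of the 61 other pathway genes tested (points, coloured by group). NFE2L2, TXNRD1, GCLM and SRXN1 lie to the left of 0 and above it, as does SLC7A11 (-0.91 and 4.99), while TXN is negative on both axes.

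The genes outside the members with the most similar course were found by the root mean square difference of the 4 log2 fold changes, over 11298 tested genes with a mean count of at least 50. PRMT1 (0.03) and POLD1 (0.05) were nearest to TXN, SYNM (0.05) and CSNK1G1 (0.08) to GCLC, and PRUNE2 (0.08) and IDH1 (0.09) to TXNRD1. ZNF274 (0.09) and BICDL1 (0.10) were nearest to GCLM, GNAI2 (0.10) and GAS2L3 (0.14) to NFE2L2, LZTFL1 (0.12) and UGDH (0.13) to SRXN1, and WHAMM (0.16) and ACAP2 (0.20) to OSGIN1. HMOX1 had no close neighbour by this measure, with UNC5B at 0.71 and ELAPOR2 at 0.76. These distances are about the size of the SE of its own fitted changes (0.74 to 0.78), which depend on the prior count. They cannot show whether its course differs from that of other genes. IDH1 and UGDH were on the lists of other pathway genes.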

How the data were processed

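RNA-seq libraries were made from ribosome-depleted total RNA and sequenced as paired ends. The authors deposited whole-number counts per gene, not normalized, in a single table. The submitters' processing notes name STAR, featureCounts and hg38, whereas the study's methods name Kallisto, so how reads shared by overlapping or near-identical genes were assigned is not settled. The annotation and the use of strand are not given in the sources used here. Identifiers were matched to symbols for 22011 of 22034 genes, and positions and exon lengths were taken from GENCODE 29.

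Genes were kept by filterByExpr in edgeR 4.0.16 (14164 genes, 64.3%). TMM-scaled counts went through the voom, lmFit and eBayes steps of limma 3.58.1 (R 4.3.3), with Benjamini-Hochberg adjustment over all tested genes. The 6 hairpin samples and the 12 other samples were fitted separately, and the 2 contrasts across experiments in all 18. No sample was left out. The study describes biological replicates, and the labels give only replicate numbers, so p-values measure the spread between these samples. Replicates differed by more than sampling noise (chi-square per degree of freedom 1.70 to 4.96). The procedure was tested on simulated counts. Totals of 11308600 to 17483423 counts set the precision, and intervals cover counting error only.

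The members and lists were chosen with earlier results of these data known. The text names all 9 members, other listed genes that were called with a mean count of at least 50 (at most 8 in a comparison, by size of change), the 2 nearest genes of each member that changed by more than 1 and ERG. The same results were recomputed with the quasi-likelihood test of edgeR, DESeq2 1.42.0, RLE, upper-quartile and library-size scaling, 2 other filters, other sample sets, a replicate block, quality weights, a lower fold threshold and leaving out each sample. The HMOX1 ratio without each library, and counts without HMOX1, were added after the data were seen. Values of 2 marker genes, and the sums that hold them, are left out here.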

Additional observations from a re-analysis of the deposited data

Results flagged for a closer look

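HMOX1 and TXNRD1 differed between times of the same treatment. HMOX1 was higher at 12 h than at 8 h of PBITE-1, by a fitted log2 fold change of 1.49 ± 0.25. Its levels were 5.29, 13.8 and 9.64 CPM against 3.49, 2.98 and 3.22, and no p is given for it, as above. TXNRD1 was higher by 1.01 ± 0.06 (limma adjusted p = 6.74e-17), with 1024, 1503 and 1217 CPM against 611, 630 and 619. Both groups of 12 h samples lay above all of the 8 h samples. Replicate 2 was the highest in each, and without it the differences were 1.17 and 0.87.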

How the results depend on the processing

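In the counts here HMOX1 is included, although it entered the tests only through the samples in which it was high. Without HMOX1, the main fit called 0 members higher after doxycycline, 0 at 4 h, 2 at 8 h and 6 at 12 h. The counts of members called at 8 and 12 h against DMSO moved by at most 1.5 times under each alternative run. Scaling decided part of the doxycycline result. With upper-quartile or library-size scaling, 2 members passed higher and 3 lower, and 0 were called lower, and the scaling by library size alone moved the median of all genes to 0.28. Requiring at least 10 counts in every sample removed HMOX1, so that members passed higher and called higher after doxycycline and called higher at 4 h each became 0. From 8 to 12 h called higher also became 0, since TXNRD1 fell just under the fold threshold there (0.996). A single fit of all 18 samples gave 1 member called higher from 8 to 12 h, for the same reason (0.996). A fold threshold of 0.58 gave 3 called lower after doxycycline, 4 higher at 4 h, 1 higher from 4 to 8 h, 5 higher and 1 lower from 8 to 12 h, and 1 lower in shERG-vehicle against DMSO.

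Signs turned for changes that did not pass. TXNRD1 in shERG-vehicle against DMSO was 0.018 in DESeq2 and 0.019 with RLE scaling, and at 4 h it was -5.2e-05 with upper-quartile and -0.023 with library-size scaling. NQO1 in the difference between responses was -0.043 with library size only and 0.22 as reported. GCLC from 8 to 12 h was -0.0012 with at least 10 counts and -0.0022 in the single fit. The cause was not tested.

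Leaving out 1 sample at a time, called lower after doxycycline ranged from 1 to 2 (2 without shERG-Dox replicate 1), called higher at 4 h from 1 to 2 (2 without DMSO replicate 1 or 4 h replicate 1 or 3), called higher from 8 to 12 h from 1 to 3, and for shERG-vehicle against DMSO passed higher from 1 to 2 (1 without shERG-vehicle replicate 2) and called lower from 0 to 1 (1 without that sample or DMSO replicate 1 or 2). The signs of NQO1 (-0.0051 to 0.11) and OSGIN1 (-0.093 to 0.43) after doxycycline, SRXN1 (-0.074 to 0.20) and NQO1 (-0.0051 to 0.26) at 4 h, NQO1 at 8 h (-0.14 to 0.083), TXNRD1 between controls (-0.032 to 0.012) and GCLC from 8 to 12 h (-0.031 to 0.044) turned.

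The labels do not say whether same-numbered samples were paired. Same-numbered deviations correlated at -0.048 to 0.11 and 1 of 12 pairs exceeded 0.1, which with 3 replicates in a group cannot decide it. With the replicate block, GCLM passed at 4 h (0.18, limma adjusted p = 0.0384), and apart from HMOX1 no other call of a member changed. The fitted change of HMOX1 from 4 to 8 h was 0.81 there, with no p given. At 0 to 3 counts per control sample, HMOX1 is the member whose fold change depth limits most.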
